A study of Mus musculus with 1 sample.

Results

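The transcripts of 6 genes of the BCL2 family, Bcl2, Mcl1, Bcl2a1b, Bcl2a1d, Bcl2l11 and Bax, were counted in single blood T cells of a mouse with small cell lung cancer (SCLC). They are 6 of the 32285 genes in the table, chosen by name with earlier results of these data known. They cover part of the family's survival genes and 2 of their opponents. The library came from 1 vehicle-treated mouse, given PBS every 3 days, of the autochthonous SCLC model on a C57BL/6 background, in which intratracheal Adeno-Cre virus starts the conditional deletion of Rb1 and Trp53. The study set a minimum age for its mice, and the age of this one is not given in the sources used here. From 150 µl of blood, red cells were lysed and T cells were enriched by negative selection, and gene expression and T cell receptors were read in the same droplets. The library of the mouse given the combination of anti-PD-1 and an ERBB2 inhibitor was not analysed here, so all comparisons are between cells of 1 animal. They have no replicate error and no p-value, and the intervals given cover counting error only.

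Proteins of the BCL2 family decide whether the outer mitochondrial membrane is opened during apoptosis. BCL2, MCL1 and the BCL2A1 proteins hold it closed, BAX opens it, and BIM, the product of Bcl2l11, is a BH3-only protein that binds the survival proteins and sets BAX free. In T cells, BCL2 is maintained by IL-7 and other cytokines, MCL1 is needed for survival at nearly all stages, BCL2A1 is induced through the antigen receptor and NF-κB, and BIM removes activated cells when an immune response ends.

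In GRCm38, the genome build named for these counts, Bcl2 lies on the minus strand at chr1:106538176-106714290 and Mcl1 on the plus strand at chr3:95656944-95663179. Bcl2l11 lies on the plus strand at chr2:128126038-128162547 and Bax on the minus strand at chr7:45461695-45466903. The mouse BCL2A1 genes are copies of 1 ancestral gene on chromosome 9. Bcl2a1b was at chr9:89199273-89207838 on the plus strand and Bcl2a1d at chr9:88723288-88731850 on the minus strand, 467423 bases apart. All 6 positions are RefSeq's for GRCm38.p6, matched by symbol, and each gene is protein coding. The table's identifiers are ENSMUSG00000057329 (Bcl2), ENSMUSG00000038612 (Mcl1), ENSMUSG00000089929 (Bcl2a1b), ENSMUSG00000099974 (Bcl2a1d), ENSMUSG00000027381 (Bcl2l11) and ENSMUSG00000003873 (Bax). The sequences before the annotated starts of the Bcl2a1 pair are shown to compare the copies there. They are not part of the annotated transcripts, and the likeness of the transcripts was not measured here. Both are from RefSeq's GRCm38.p6, read 5′ to 3′ along the gene's strand, from chr9:89199023-89199228 for Bcl2a1b and from chr9:88731851-88732050 for Bcl2a1d, with the positions at which they differ in capitals.
Bcl2a1b: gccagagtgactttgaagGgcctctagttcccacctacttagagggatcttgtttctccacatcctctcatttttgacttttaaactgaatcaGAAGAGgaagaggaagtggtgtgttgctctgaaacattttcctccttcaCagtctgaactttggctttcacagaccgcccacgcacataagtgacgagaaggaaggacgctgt
Bcl2a1d: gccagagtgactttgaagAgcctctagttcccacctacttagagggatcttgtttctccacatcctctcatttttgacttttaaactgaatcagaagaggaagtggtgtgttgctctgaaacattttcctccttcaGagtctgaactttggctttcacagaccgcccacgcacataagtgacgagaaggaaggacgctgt
The 206 bases of Bcl2a1b run from 250 to 45 bases before the annotated start and the 200 bases of Bcl2a1d from 200 to 1 base before it. Of 200 aligned positions, 198 were identical, 2 differed, and 6 bases of Bcl2a1b stood opposite a gap. Both stretches hold 1 copy of AGGAAGTG, a run with the core of an ETS factor motif that was picked after the sequences were seen. The same search of 250 upstream bases on both strands found no match in the other 4 genes and a match in 1031 of 32851 RefSeq promoters (3.14%). A match of letters is not evidence of binding. UMIs of Bcl2a1b and Bcl2a1d are given apart, as the table has them, and also summed. How the counting divided any reads that match both copies cannot be checked in the files.

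The library held 12855001 UMIs (unique molecular identifiers, each a counted transcript) in 300213 barcodes. The 1600 barcodes with at least 1331 UMIs were taken as cells and held 62.0% of all UMIs, with a median of 3934.5 and a range of 1334 to 18399 per cell. Cells were sorted into groups by single marker genes, in the order Cd79a, Foxp3, Cd4 without CD8, and Cd8a or Cd8b1 without Cd4, the last divided by any UMI of the granzyme genes Gzmk, Gzma or Gzmb. This gave 351 Cd4 cells, 39 Foxp3 cells, 595 CD8 cells without granzyme UMIs, 106 granzyme CD8 cells, 106 Cd79a cells and 403 cells outside these groups. In 613 of the 1600 cells (38.3%) under 10% of UMIs came from 101 ribosomal protein genes. These low-ribosomal cells were 39.9% of Cd4, 23.1% of Foxp3, 32.3% of CD8 without granzyme, 9.43% of granzyme CD8 and 26.4% of Cd79a cells, and each comparison was repeated without them.

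The groups were checked against marker lists. All 6 T cell genes of the marker list (Cd3d, Cd3e, Cd3g, Trac, Trbc2, Lat) were read in each T group and also in Cd79a cells. Their summed level was 27.2 to 41.5 UMIs per 10000 in the T groups and 5.55 in Cd79a cells. The summed B cell list reached 222 UMIs per 10000 in Cd79a cells against 0.585 to 4.85 in the T groups. The Foxp3 group was mixed: Cd4, Zbtb7b or Cd40lg was read in 19 of its 39 cells and a CD8 gene in 8. One cell of that group carried 2041 neutrophil-marker UMIs per 10000, and 9 CD8 cells without granzyme had a neutrophil marker. T cell genes were read in 31 of the 106 Cd79a cells. Values without such cells ("strict groups") are given where they change a result.

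Bcl2 and Mcl1 were read in most cells and the other genes in fewer. In the 1600 cells the table held 6786 Bcl2 UMIs in 1084 cells (67.8%), 2767 Mcl1 UMIs in 1147 cells (71.7%), 882 Bax UMIs in 559 cells (34.9%) and 410 Bcl2l11 UMIs in 307 cells (19.2%). Bcl2a1b had 163 UMIs in 133 cells (8.31%) and Bcl2a1d 61 in 49 cells (3.06%), with 24 cells holding both. These totals describe how well each gene was measured and are not compared between genes, since transcript length and capture differ. Free RNA, taken from 20532 barcodes of 10 to 50 UMIs, held 3.50 Bcl2, 2.03 Mcl1, 0.540 Bax, 0.360 Bcl2l11, 0.0600 Bcl2a1b and 0.0360 Bcl2a1d UMIs per 10000. In 24 cells with at least 3 erythroid markers, which had a median of 4122 UMIs, no Bcl2 UMI was found in 92737 UMIs, which allows up to 0.323 per 10000 at 3 counts. The 18 neutrophil-marked cells outside the groups, with a median of 3142 UMIs, also had none.

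**Figure D1:**
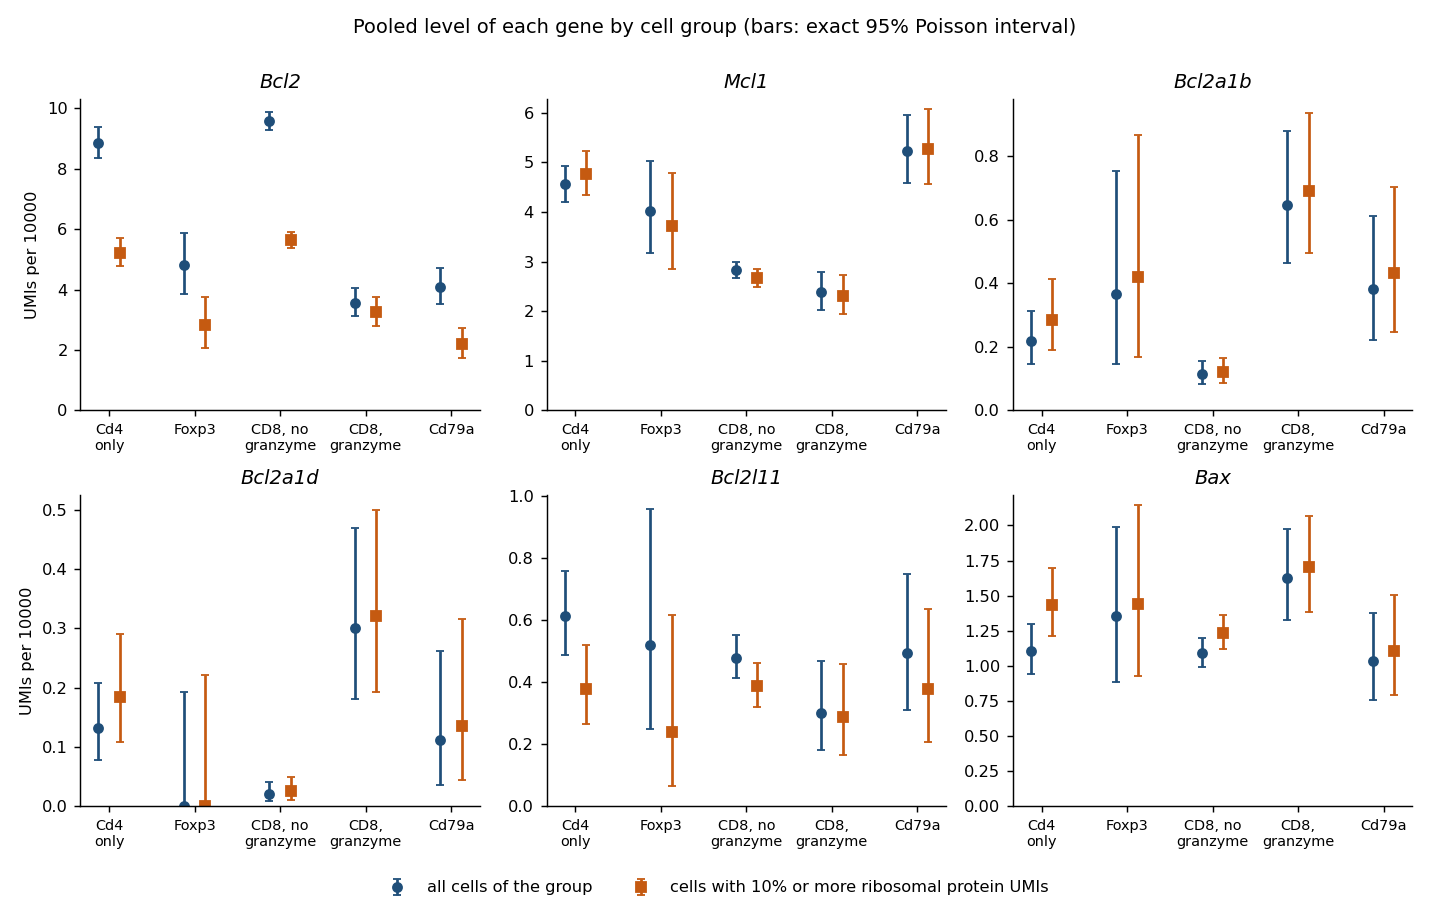
Pooled UMIs per 10000 (y axis, each panel with its own scale from 0) of the 6 genes in the 5 cell groups (x axis), for all cells and for those with 10% or more ribosomal protein UMIs, with exact 95% Poisson intervals. Bcl2 was highest in Cd4 and in CD8 cells without granzyme, while the highest values of Bcl2a1b and Bcl2a1d were in granzyme CD8 cells.

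Bcl2 was highest in CD8 cells without granzyme and in Cd4 cells and lower in the other 3 groups. CD8 cells without granzyme had 9.59 UMIs per 10000 (9.28 to 9.90, exact 95% Poisson interval, as for all rates below) and Cd4 cells 8.87 (8.38 to 9.38). Foxp3 cells had 4.80 (3.87 to 5.89), Cd79a cells 4.09 (3.52 to 4.73) and granzyme CD8 cells 3.57 (3.12 to 4.07). In this order the first pair overlapped, the step from Cd4 to Foxp3 cells did not, and the last 3 groups overlapped with their neighbours. A Bcl2 UMI was found in 84.5% of CD8 cells without granzyme, 63.8% of Cd4, 62.3% of granzyme CD8, 53.8% of Foxp3 and 44.3% of Cd79a cells. After thinning each cell of at least 2500 UMIs to 2500, the shares were 72.3% of 541, 58.5% of 265, 52.5% of 101, 47.1% of 34 and 38.0% of 79 cells. Without low-ribosomal cells the Bcl2 rate was 5.63 in CD8 without granzyme, 5.23 in Cd4, 3.25 in granzyme CD8, 2.83 in Foxp3 and 2.19 in Cd79a cells, so the first pair stayed above the other groups at a lower level. The free RNA value of Bcl2 given above lay within the granzyme CD8 interval of all cells. It was above the rates of granzyme CD8, Foxp3 and Cd79a cells once low-ribosomal cells were left out.

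Mcl1 followed another order. Cd79a cells had 5.24 UMIs per 10000 (4.59 to 5.95), Cd4 cells 4.56 (4.21 to 4.93) and Foxp3 cells 4.02 (3.17 to 5.02), each overlapping with the next. Both CD8 groups were lower, with 2.83 (2.661 to 2.998) without and 2.39 (2.02 to 2.80) with granzyme, and did not differ beyond counting error. Leaving out low-ribosomal cells moved these 5 rates to between 2.31 and 5.27 and kept their order. The free RNA value of Mcl1 given above lay within the granzyme CD8 interval, both with all cells and without low-ribosomal cells (1.94 to 2.73).

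The Bcl2a1 genes were sparse everywhere. Granzyme CD8 cells had 0.648 Bcl2a1b UMIs per 10000 (0.465 to 0.879; 41 UMIs), Cd79a cells 0.382 (17 UMIs), Foxp3 cells 0.365 (7 UMIs), Cd4 cells 0.219 (30 UMIs) and CD8 cells without granzyme 0.116 (0.0845 to 0.155; 45 UMIs). Bcl2a1d was at 0.300 (0.181 to 0.469; 19 UMIs) in granzyme CD8 cells, 0.131 in Cd4 cells (18 UMIs), 0.112 in Cd79a cells (5 UMIs) and 0.0206 in CD8 cells without granzyme (8 UMIs). Foxp3 cells had no Bcl2a1d UMI in 191653, which allows up to 0.157 per 10000 at 3 counts. Adjacent groups overlapped for both genes when all cells were used. For Bcl2a1b, granzyme CD8 cells were apart from Cd4 cells (0.148 to 0.312) and from CD8 cells without granzyme, and Cd79a cells (0.223 to 0.612) from CD8 cells without granzyme. For Bcl2a1d, granzyme CD8 and Cd4 cells (0.0778 to 0.207) were each apart from CD8 cells without granzyme. The 8 Bcl2a1d UMIs in CD8 cells without granzyme gave an interval (0.00889 to 0.0406) that held the free RNA value.

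Of the opposing genes, Bcl2l11 went from 0.613 UMIs per 10000 in Cd4 (0.489 to 0.758) to 0.300 in granzyme CD8 cells (0.181 to 0.469), with the ends apart and all neighbours overlapping. Without low-ribosomal cells all 5 groups lay between 0.241 and 0.387 and overlapped. With all cells, the free RNA value of Bcl2l11 lay within the intervals of granzyme CD8, Foxp3 (0.250 to 0.960) and Cd79a cells (0.310 to 0.749). Without low-ribosomal cells that value lay within the intervals of all 5 groups. Among these were Cd4 cells (0.266 to 0.520) and CD8 cells without granzyme (0.322 to 0.461). Bax ranged from 1.03 in Cd79a cells (0.757 to 1.38) to 1.63 in granzyme CD8 cells (1.33 to 1.97). Its interval in granzyme CD8 cells was apart from those of both Cd4 cells (0.939 to 1.30) and CD8 cells without granzyme (0.990 to 1.20). Without low-ribosomal cells it (1.39 to 2.07) overlapped with that of Cd4 cells (1.21 to 1.695).

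A gene was called different between groups of cells when the ratio of its pooled rates was past 1.5 in either direction and the 95% intervals of the rates were apart, wherever both groups summed to 20 UMIs of the gene or more. The same rule over all genes gives the background for each comparison. Since the members were chosen with earlier results known, their counts beside it describe and do not test. A sparse gene can also pass the filter only through the group where it is high. Among the members this was so for Bcl2a1d in granzyme CD8 against other CD8 cells and in CD8 without granzyme against Cd4 cells. It was also so for Bcl2a1b in Cd4 cells divided by S100a4.

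**Figure D2:**
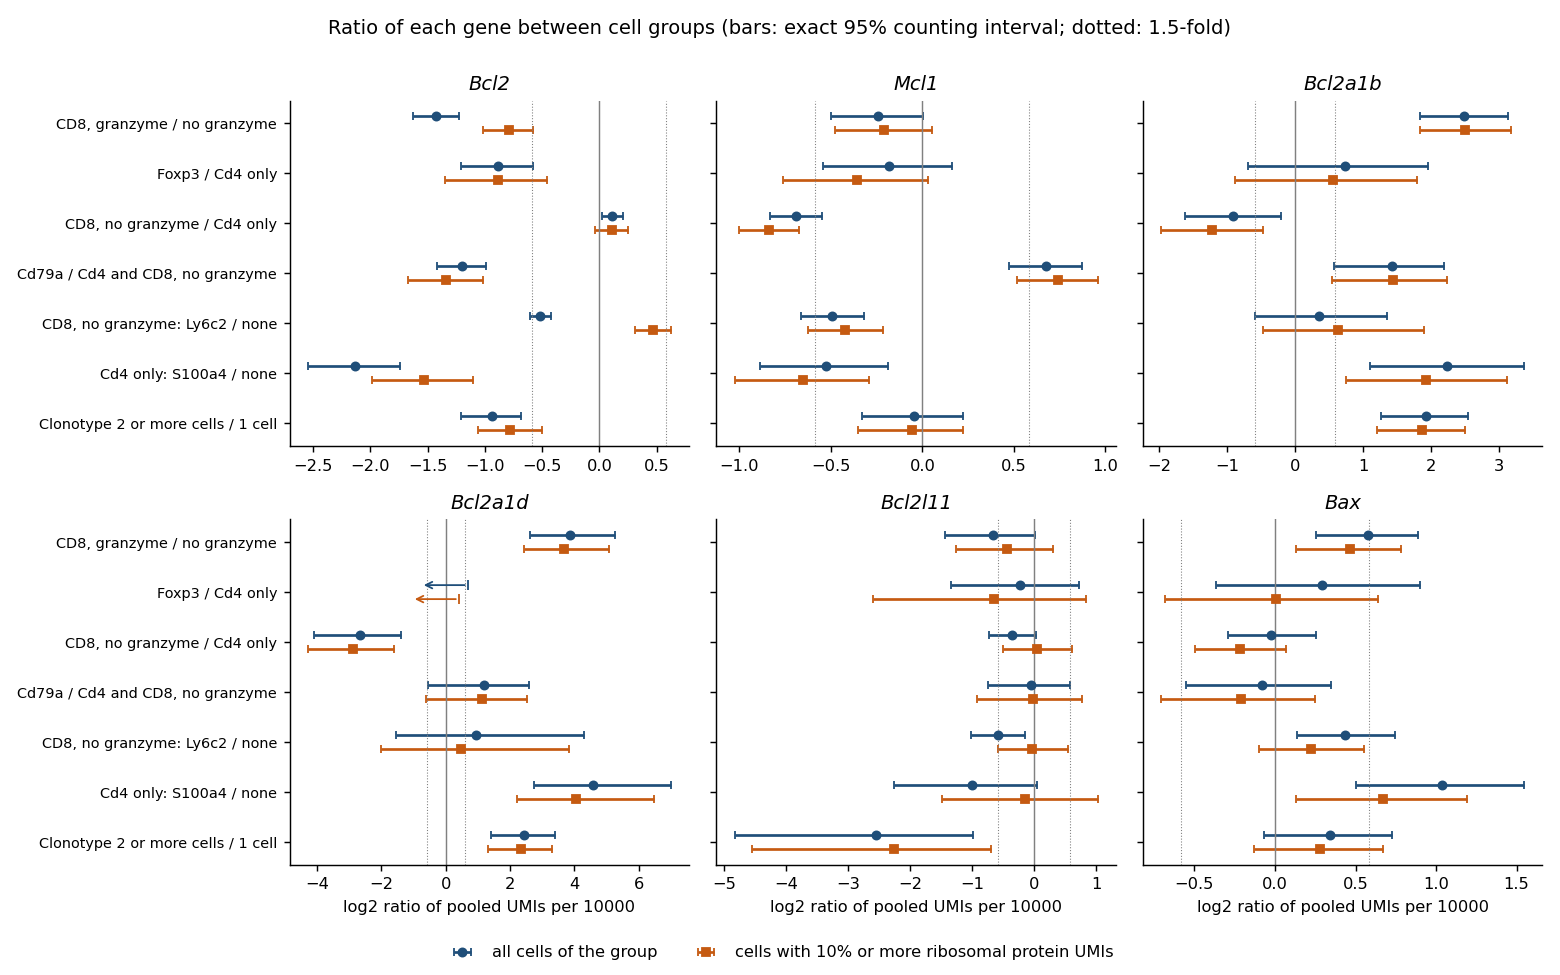
Ratio of pooled UMIs per 10000 (x axis, log2; each panel with its own scale) of the 6 genes in 7 comparisons of cell groups (y axis), for all cells and for those with 10% or more ribosomal protein UMIs, with exact 95% counting intervals. Arrows start at the upper limit where the first group had no UMI, and dotted lines mark 1.5-fold. Bcl2 lies left of 0 and both Bcl2a1 genes right of it for granzyme CD8 cells and for clonotypes of 2 or more cells, and the Bcl2 ratio of Ly6c2 cells changes side without low-ribosomal cells.

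Granzyme CD8 cells, which hold the cytotoxic effector genes, were set against CD8 cells without granzyme, which include naive and resting cells. Bcl2 was 2.68-fold lower (226 against 3725 UMIs; ratio 0.373, 0.324 to 0.426), Bcl2a1b 5.60-fold higher (3.57 to 8.74) and Bcl2a1d 14.6-fold higher (6.10 to 38.5). Bcl2a1d, with 19 against 8 UMIs, passed the filter only through the granzyme cells. Bcl2, Bcl2a1b and Bcl2a1d, 3 of the 6 genes, were called, where 16.9% of the 9636 genes tested were. Mcl1 (ratio 0.845, 0.708 to 1.002), Bcl2l11 (0.627, 0.369 to 1.01) and Bax (1.49, 1.19 to 1.85) were not. The pooled rates of Bcl2 and of the Bcl2a1 pair, all survival genes, thus stood on opposite sides in this comparison. Without low-ribosomal cells Bcl2 was only 1.73-fold lower, while Bcl2a1b was 5.68-fold and Bcl2a1d 12.8-fold higher. With granzyme cells defined by any Gzma or Gzmb UMI, with or without Gzmk, Bcl2l11 was called lower as well (0.394). CD8 cells with Gzmk only then counted as cells without granzyme. Without predicted doublets Bax was called too, at 1.54-fold, and after thinning to 2500 UMIs 2 members were called, with Bcl2a1d at 6.70-fold. The share of all genes called is not given here for these alternatives.

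The Bcl2a1 genes were also read cell by cell and by combination of granzymes. A UMI of Bcl2a1b or Bcl2a1d was found in 41 of 106 cells (38.7%), against 47 of 595 CD8 cells without granzyme (7.90%). The median depths of these groups were 5412 and 5664 UMIs. The 24 erythroid-marked cells had no UMI of either gene, with an upper limit of 0.398 per 10000 for the summed rate. That limit is above the 0.136 of CD8 cells without granzyme and below the 0.948 of granzyme CD8 cells. By granzyme, 22 of 41 cells with Gzmk and Gzma or Gzmb together carried either gene (53.7%), 14 of 39 with Gzmk alone (35.9%) and 5 of 26 with Gzma or Gzmb alone (19.2%). The summed rate was 1.41 per 10000 (0.986 to 1.95) in the first, 0.854 (0.506 to 1.35) in the second and 0.361 (0.133 to 0.786) in the third, so the ends were apart and the middle overlapped with both. Bcl2 over the same 3 sets was 2.82, 4.08 and 4.09 UMIs per 10000, with overlapping intervals.

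A wider list of 34 apoptosis genes was read in the same way. Of 24 tested, 5 were called higher and none lower, beside the 16.9% of all genes called in this comparison. Among the 5 were Bak1, the other effector (2.35-fold), the BH3-only genes Bad (2.19-fold) and Pmaip1 (5.42-fold, 15 against 17 UMIs), and the death ligand gene Fasl (10.3-fold). The median log2 ratio of the list was 0.17, against 0.04 over all genes. Among 13 tested genes of cytokine input, which maintains BCL2, Il7r, the IL-7 receptor chain, was lower (ratio 0.662, 0.600 to 0.730) and so was Socs3, a STAT feedback inhibitor (0.554). Il2rb, the receptor chain shared by IL-2 and IL-15, was higher (1.53-fold), as were Il15ra (3.28-fold) and the STAT5 target Cish (5.04-fold). Without low-ribosomal cells Il7r was no longer called and Jak1 was called higher (1.71-fold).

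Foxp3 cells were compared with Cd4 cells, since FOXP3 marks regulatory T cells. Bcl2 was 1.85-fold lower (92 against 1216 UMIs; ratio 0.541, 0.433 to 0.670), the 1 call among 5 members tested, with 7.26% of 7949 genes called. Mcl1 (0.882), Bcl2l11 (0.852), Bcl2a1b (1.67) and Bax (1.22) had ratio intervals that included 1. Bcl2a1d, with 0 against 18 UMIs, was under the filter. In strict groups, which kept 29 of the 39 Foxp3 cells, the Bcl2 ratio was 0.626, with 1 member called as before, and that of Bcl2a1b was 0.355. The share of all genes called in strict groups is not given here. Without cells under 5% ribosomal UMIs the Bcl2 ratio was 0.677 and not called, the mean over cells gave 0.675, and at least 2 Foxp3 UMIs gave 0.258. None of 19 tested genes of the wider list was called. Of 13 cytokine genes, Il2ra, the high-affinity IL-2 receptor chain (30.1-fold, 21 against 5 UMIs), and Il2rb (2.56-fold) were higher and Il7r was lower (ratio 0.560), and high IL-2 receptor with low IL-7 receptor is known for regulatory T cells. Il2ra is also a marker of that cell type on the list used here.

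CD8 cells without granzyme differed from Cd4 cells in Mcl1, which was 1.61-fold lower (ratio 0.620, 0.561 to 0.685), and in Bcl2a1d, which was 6.38-fold lower (8 against 18 UMIs). These 2 of 6 genes were called, where 17.4% of 9963 genes were, and the median gene was lower too (log2 -0.17). Bcl2 (1.08), Bax (0.984) and Bcl2l11 (0.781) stayed within 1.5-fold. Bcl2a1b (0.529) was past it with overlapping intervals, and was called without low-ribosomal cells (0.426), where 14.4% of 9368 genes were. Of the Cd4 UMIs, 15 of the 18 of Bcl2a1d and 15 of the 30 of Bcl2a1b were in 43 cells with S100a4, described below. The 308 other Cd4 cells had pooled rates of 0.0265 for Bcl2a1d and 0.1325 for Bcl2a1b. CD8 cells without granzyme had 0.0206 and 0.116, and the intervals overlapped for both genes. The lower Bcl2a1 rates were thus not seen against Cd4 cells without S100a4. When rates were taken over UMIs that are neither ribosomal nor mitochondrial, the Mcl1 ratio was 0.716 and no longer called. In the wider list Bbc3, the BH3-only gene for PUMA, was higher (1.73-fold), while Casp8 (0.631), its inhibitor gene Cflar (0.542) and the death receptor gene Fas (0.645) were lower, of 24 tested. Of 13 cytokine genes Il2rb was higher (2.37-fold) and Stat5b, Socs3 and Cish were lower. Bbc3 was not called without low-ribosomal cells.

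Cd79a cells, which carry the B cell receptor chain, were set against Cd4 cells and CD8 cells without granzyme together. Bcl2 was 2.30-fold lower (ratio 0.435, 0.373 to 0.505), Mcl1 1.60-fold higher (1.39 to 1.83) and Bcl2a1b 2.68-fold higher (1.48 to 4.58; 17 against 75 UMIs). These 3 of 6 genes were called, where 17.7% of 10287 genes were. Bcl2a1d (2.27), Bcl2l11 (0.963) and Bax (0.944) were not. CD8 cells without granzyme supplied 3886273 of the 5257672 UMIs of the pooled T cells. Against Cd4 cells alone, the Cd79a interval was apart for Bcl2 but overlapped for 2 genes. These were Mcl1 (4.59 to 5.95 against 4.21 to 4.93) and Bcl2a1b (0.223 to 0.612 against 0.148 to 0.312). The Mcl1 ratio fell short of 1.5 over UMIs neither ribosomal nor mitochondrial (1.48), after thinning to 2500 UMIs (1.42) and as a mean over cells (1.44). When the Cd79a cells with a T cell receptor, CD3, Cd4 or CD8 were left out, 78 remained and the Bcl2 ratio was 0.219, so the contrast was larger in Cd79a cells without T cell markers. Of 25 wider-list genes Bid was higher (3.10-fold) and Bbc3 (0.316) and Fas (0.263) lower. Of 13 cytokine genes 4 were lower, Il7r most (ratio 0.174), with Il2rb, Stat5b and Socs3, of which Stat5b was not called without low-ribosomal cells.

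CD8 cells without granzyme were divided by Ly6c2, a surface protein gene of memory and interferon-exposed CD8 cells. No member was called among the 5 tested, where 19.4% of 9352 genes were (206 higher, 1612 lower, median log2 -0.17). Bcl2 was at 8.21 UMIs per 10000 in the 282 Ly6c2 cells and at 11.7 in the 313 others, a ratio of 0.700 (0.656 to 0.746). Low-ribosomal cells were 41 of the first and 151 of the second. Among the remaining cells the order turned: Bcl2 was at 6.17 (5.84 to 6.51) in Ly6c2 cells and 4.47 (4.07 to 4.90) in the others, 1.38-fold higher. Among low-ribosomal cells it was also higher, at 32.5 (29.9 to 35.2) against 26.6 (25.2 to 28.1). The lower pooled value went with the different shares of low-ribosomal cells, and neither among low-ribosomal cells nor among the others was Bcl2 lower with Ly6c2. Bax was 1.35-fold higher and Mcl1 had a ratio of 0.711, under the fold used. Ly6c2 cells were deeper, with a median of 8674 UMIs against 4081. After thinning to 2500 UMIs, Bcl2 (ratio 0.602), Mcl1 (0.643) and Bax (1.96) were called, and the part of depth in this was not tested. The share of all genes called after thinning is not given here, so these calls have no background beside them. In the wider list Bbc3 (2.97-fold) and Fasl (47 UMIs in 282 cells against 2 in 313; ratio interval 3.94 to 128) were higher and Fas (0.442) and Cflar (0.621) lower. Il2rb was higher (2.94-fold) and Stat5b lower. Without low-ribosomal cells 4.37% of genes were called, again with no member among them, and Cflar was not.

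Cd4 cells were divided by S100a4, a gene of antigen-experienced T cells. The 43 S100a4 cells had 2.34 Bcl2 UMIs per 10000 (1.77 to 3.04) and the 308 others 10.2 (9.67 to 10.9), a 4.38-fold difference. Bcl2a1b was 4.72-fold higher (2.15 to 10.4; 15 UMIs in each group) and Bax 2.05-fold higher (1.42 to 2.92). These 3 of 5 members tested were called, where 16.1% of 7613 genes were. Bcl2a1d had 15 UMIs in the 43 cells and 3 in the 308, which is under the filter. Either Bcl2a1 gene was read in 18 of the 43 cells (41.9%) and in 14 of the 308 (4.55%). These shares are without thinning, at median depths of 4900 and 3193 UMIs, and the part of depth in them was not tested. Pooled Bcl2 was low and pooled Bcl2a1b high in S100a4 Cd4 cells, as in granzyme CD8 cells, each against the comparison cells named above. Bcl2a1b passed the filter here only through the S100a4 cells, so this likeness is a description and not a test. Without low-ribosomal cells, which were 4 and 136 of these groups, Bcl2 was 2.88-fold lower and Bcl2a1b 3.79-fold higher, Bax was at 1.59 and not called and Mcl1 was called lower (0.637). Among the cells that remained, 9.21% of 6342 genes were called. Of the wider list Fasl and Vdac1 were higher, of 18 tested, and among 12 cytokine genes Il2rb was higher (6.25-fold) and Il4ra, Stat5b and Jak1 lower. Fasl, Stat5b and Jak1 were not called without low-ribosomal cells.

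Clonotypes, sets of cells with the same T cell receptor, were assigned by the authors to 964 of the 1600 cells. Cells of clonotypes of 2 or more were 72 and those of single-cell clonotypes 892. Bcl2 was 1.92-fold lower in the first (3.38 against 6.49 UMIs per 10000; ratio 0.521, 0.433 to 0.622), and Bcl2l11 was lower as well, with 3 UMIs against 255 (ratio 0.171, 0.0350 to 0.505). Bcl2a1b was 3.81-fold (2.40 to 5.87) and Bcl2a1d 5.40-fold higher (2.62 to 10.5). These 4 of 6 genes were called, where 10.6% of 10096 genes were. Mcl1 (0.968) and Bax (1.27) were not called. Without cells under 15% ribosomal UMIs the Bcl2 ratio was 0.729 and no longer called, which left 3 members. The share of all genes called at that limit is not given here.

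**Figure D3:**
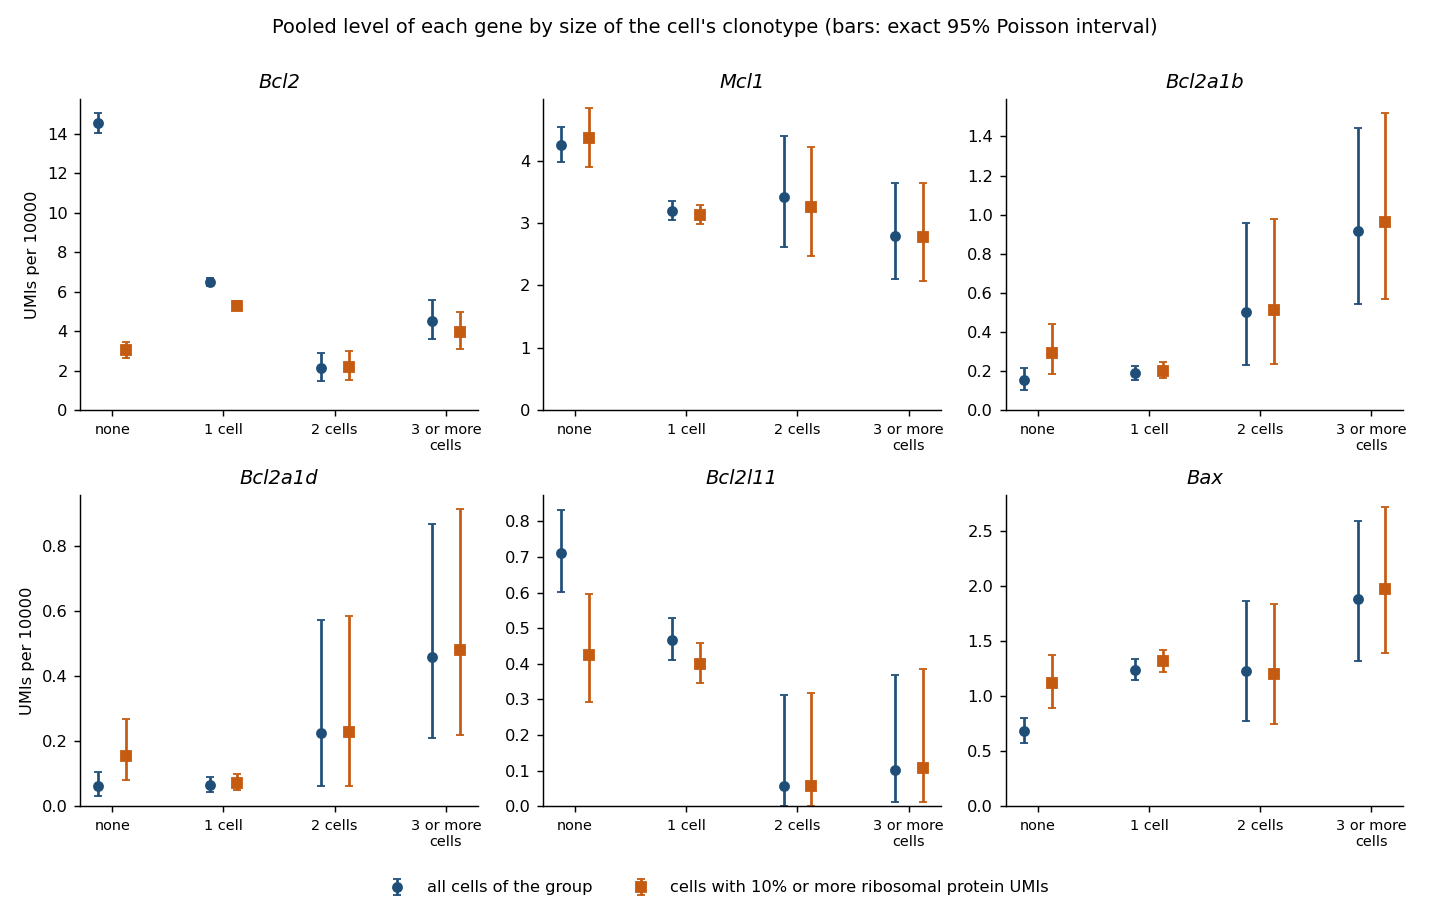
Pooled UMIs per 10000 (y axis, each panel with its own scale from 0) by size of the cell's clonotype (x axis), for all cells and for those with 10% or more ribosomal protein UMIs, with exact 95% Poisson intervals. Bcl2a1b was at 0.189 in clonotypes of 1 cell and 0.915 in those of 3 or more, and Bcl2l11 had 1 and 2 UMIs in clonotypes of 2 and of 3 or more cells.

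Bcl2 did not follow clonotype size step by step. It was at 14.5 UMIs per 10000 in the 636 cells without a clonotype, 6.49 in clonotypes of 1 cell, 2.13 (1.505 to 2.92) in those of 2 and 4.52 (3.63 to 5.56) in those of 3 or more, the last pair apart with the larger clonotypes higher. Of the 636 cells without a clonotype 73.4% were low-ribosomal, and without these the value was 3.04. Bcl2a1b was at 0.154, 0.189, 0.504 and 0.915 over the same 4 sets, with 33, 103, 9 and 18 UMIs. The last pair overlapped.

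Larger clonotypes and granzyme went together, so the comparison was also read within groups. Of the 72 cells in clonotypes of 2 or more, 43 were granzyme CD8 cells, 12 CD8 without granzyme and 12 Cd4. Within granzyme CD8 cells Bcl2 was at 3.42 UMIs per 10000 (2.70 to 4.28) in clonotypes of 2 or more and 3.80 (3.19 to 4.48) in those of 1 cell, and Bcl2a1b at 0.888 (0.543 to 1.37) and 0.542 (0.331 to 0.837). Both pairs overlapped, so neither difference was detectable within these cells. In Cd4 cells Bcl2 was at 1.86 (0.927 to 3.32, 11 UMIs) in the 12 cells of clonotypes of 2 or more. Those of 1 cell had 7.25 (6.75 to 7.79), which is apart. Of these 12 Cd4 cells 7 had S100a4, and the S100a4 Cd4 cells as a whole had a Bcl2 rate of 2.34. The part of S100a4 in this difference was not tested. In CD8 cells without granzyme Bcl2 was at 5.003 (3.46 to 6.99) and 6.69 (6.41 to 6.98), which overlap. Within granzyme CD8 cells Bcl2l11 was at 0.133 (0.0275 to 0.390, 3 UMIs) and 0.380 (0.208 to 0.637, 14 UMIs), also overlapping. It had no UMI in the 12 CD8 cells without granzyme (up to 0.441 at 3 counts) or the 12 Cd4 cells (up to 0.507) of clonotypes of 2 or more. Single-cell clonotypes of these groups were at 0.430 and 0.519. The lower Bcl2l11 was thus apart in the pooled cells and not within a group.

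The wider list had Pmaip1 (3.75-fold), Fas (1.74-fold) and Fasl (5.10-fold) higher and Cflar lower (ratio 0.580) in clonotypes of 2 or more, of 24 tested. These stand beside the 10.6% of all genes called in this comparison. The lists were not read within cell groups, and 43 of the 72 cells were granzyme CD8 cells. Of 14 cytokine genes Cish was higher (2.59-fold), and Il7r (0.618), Il4ra, Socs1 and Socs3 (0.324) were lower. Pmaip1 and Cflar were not called without low-ribosomal cells, where 9.69% of 9862 genes were.

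The largest clonotypes differed among themselves. The first had 9 cells (TRBV12-2 with TRBJ1-6), of which 6 were granzyme CD8, 2 CD8 without granzyme and 1 a Cd79a cell. It held 26 Bcl2 UMIs (5.75 per 10000), of which 12 were in a single cell and none in 3 cells, and 2 Bcl2a1b and 1 Bcl2a1d UMIs. The second had 8 granzyme CD8 cells (TRBV1 with TRBJ1-4), with 17 Bcl2 UMIs (3.85 per 10000), 10 of Bcl2a1b (2.27, 1.09 to 4.17) in 5 cells, and 4 of Bcl2a1d. That clonotype supplied 10 of the 27 Bcl2a1b UMIs of all clonotypes of 2 or more cells. The third clonotype to the seventh, of 3 to 5 cells, held 0 to 3 Bcl2a1b and 0 to 2 Bcl2a1d UMIs each. Bcl2l11 was at 0 in 6 of the 7 and had 2 UMIs in the fifth, and a count of 0 there allows 0.663 to 1.72 per 10000 at 3 counts, above the rate of single-cell clonotypes. Bcl2 in the sixth and seventh was 1 UMI each, against 10 to 26 in the first 5.

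Bcl2 and Bcl2l11 encode a protein and its binding partner, and their UMIs in the same cells were set in a ratio. The ratio was 20.03 (17.3 to 23.3) in CD8 cells without granzyme, 14.5 (11.6 to 18.3) in Cd4, 11.9 (7.44 to 20.1) in granzyme CD8, 9.20 (4.78 to 19.8) in Foxp3 and 8.27 (5.30 to 13.5) in Cd79a cells. Without low-ribosomal cells CD8 cells without granzyme were at 14.5 (12.1 to 17.6), close to Cd4 cells at 13.9 (9.93 to 19.9). Granzyme CD8 cells had 2.68-fold less Bcl2 than CD8 cells without granzyme, with a ratio of the pair whose interval overlapped theirs. In clonotypes of 2 or more cells the ratio was 42.3 (14.2 to 208) on 3 Bcl2l11 UMIs, against 13.9 (12.2 to 15.8) in those of 1 cell. The intervals overlapped. The ratio counts transcripts, not protein, and free RNA was not subtracted from it.

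Low-ribosomal CD8 cells without granzyme held more Bcl2 than the others of that group. Among CD8 cells without granzyme, 192 low-ribosomal cells had 28.2 Bcl2 UMIs per 10000 (26.9 to 29.5) and the other 403 had 5.63 (5.37 to 5.89), a 5.01-fold difference. Bcl2l11 was 2.35-fold higher (1.71 to 3.21) and Bax 3.01-fold lower (28 against 396 UMIs). These 3 of 5 tested genes were called, where 53.3% of all genes were and the median log2 ratio was 0.50, so a call here is common. Over UMIs that are neither ribosomal nor mitochondrial Bcl2 was 3.38-fold and Bcl2l11 1.59-fold higher. Mcl1 was 1.34-fold higher on the first scale and at 0.907 on the second, so its direction depends on the scale.

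**Figure D4:**
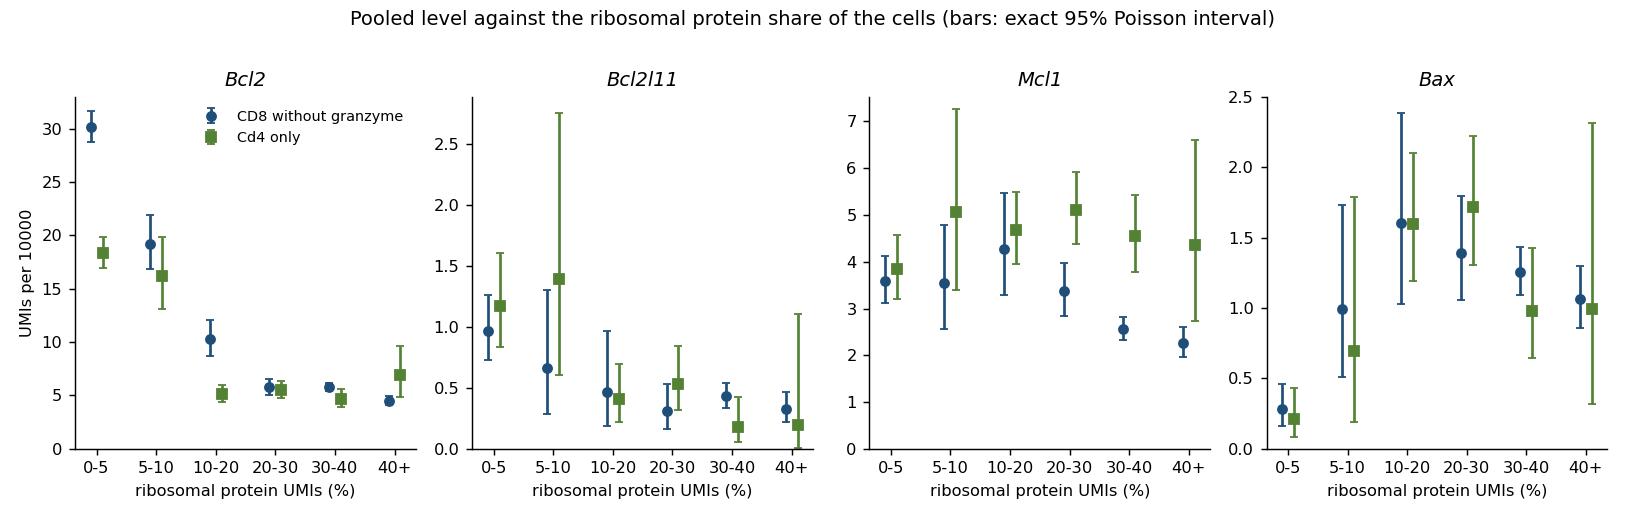
Pooled UMIs per 10000 (y axis, each panel with its own scale from 0) of 4 genes against the share of ribosomal protein UMIs in the cell (x axis, 6 bins) in CD8 cells without granzyme and in Cd4 cells, with exact 95% Poisson intervals. Bcl2 in CD8 cells without granzyme lies at 30.1 under 5% and 4.51 at 40% or more; the highest Cd4 bin holds 7 cells.

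Bcl2 was highest in the bins of lowest ribosomal share. In CD8 cells without granzyme it was 30.1 UMIs per 10000 under 5% (156 cells), 19.2 from 5 to 10% (36 cells), 10.3 from 10 to 20% (40 cells) and 5.75, 5.77 and 4.51 in the bins above (70, 195 and 98 cells). Cd4 cells went from 18.3 (119 cells) and 16.2 (21 cells) to between 4.70 and 6.94. Bax was lowest under 5% and highest in a middle bin. In CD8 cells without granzyme it was 0.286 (0.163 to 0.464) under 5% and 1.60 (1.03 to 2.39) from 10 to 20%. At 40% or more it was 1.06 (0.860 to 1.30), which overlaps with the interval from 10 to 20%. Cd4 cells had 0.210 under 5%, 1.60 from 10 to 20%, 1.72 from 20 to 30% and 0.991 at 40% or more. Over UMIs neither ribosomal nor mitochondrial, Bax in CD8 cells without granzyme was 0.303 under 5%. It was then 1.98, 1.92, 2.00 and 1.91 in the bins from 10% up. Cd4 cells had 0.221 under 5% and 1.94, 2.34, 1.54 and 1.74 from 10% up on that scale. The share is itself part of the denominator. The cells under 5% had median depths of 3395 UMIs (CD8) and 2746 (Cd4), against 8776 and 5445 from 30 to 40%, and low-ribosomal cells had 2.80% mitochondrial UMIs against 1.53% in the others. The part of depth and RNA quality in these differences was not tested.

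Genes with the most similar profile over the 5 groups were found by the root mean square difference of centred log2(UMIs per 10000 + 0.1) among 7324 genes with at least 100 UMIs. For Bcl2 they were Cmah, Klf7 and Rgcc, for Mcl1 Tgfbr1, Kpna3 and Srebf2, and for Bax Nip7, Tor2a and Higd2a. For Bcl2l11 they were Gm26510, Tom1l2 and Oxr1, for Bcl2a1b Reep5, Plekhb2 and Phf11b, and for Bcl2a1d Stmn1, Mirt1 and Rdm1. The differences of the nearest were 0.13 for Bcl2, 0.04 for Mcl1, 0.02 for Bax, 0.02 for Bcl2l11, 0.10 for Bcl2a1b and 0.24 for Bcl2a1d on the log2 scale. With 5 groups of cells from 1 library this is a description, and the Bcl2a1 profiles rest on few UMIs.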

How the data were processed

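Gene expression and T cell receptor libraries of 1 vehicle-treated mouse were made with 10x Genomics kits. The authors deposited unfiltered UMI counts for every barcode from Cell Ranger (version 4 in the file header, build GRCm38 per the labels), not normalized, beside T cell receptor contigs with their UMI and read counts and clonotypes. How Cell Ranger was set to treat reads that match more than 1 gene is not given in the sources used here.

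The limit for cells was the UMI total at percentile 99 among the 3000 largest barcodes, divided by 10. Counts were summed over the cells of a group, with exact 95% Poisson intervals for rates per 10000 UMIs, exact binomial (Clopper-Pearson) intervals for shares, and ratio intervals from the binomial. The limit at a count of 0 is 3 counts. These cover counting error only, because cells of 1 library are not replicates, and no test was run. Groups follow single UMIs, so cells in which a marker was missed sit in the wrong group. Scrublet, run through Scanpy, marked 10 doublets (0.625%), which were kept. Free RNA was taken as barcodes of 10 to 50 UMIs. The call rule was checked on simulated Poisson counts. These hold no unevenness between cells, so the check covers counting error only.

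Alternatives were the limit for cells (1000 or 2000 UMIs), 2 UMIs of the defining genes, a fold of 2, thinning to 2500 UMIs and means over cells. Others were subtraction of free RNA, the denominator, granzyme cells defined without Gzmk, clonotypes by CDR3 beta, and leaving out low-ribosomal cells or doublets. Strict groups and ribosomal limits of 5% and 15%, and the comparison of low-ribosomal with other cells, were added after seeing the data. The genes and lists were chosen with earlier results of these data known. Genes are named where they are members, were called in a list, or were among the 3 most similar. The values of 1 called list gene are not reported here. Python 3.11.15, NumPy 2.4.6, SciPy 1.17.1, pandas 2.3.3, Scanpy 1.11.5 and Biopython 1.88 were used.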

Additional observations from a re-analysis of the deposited data

Results flagged for a closer look

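Barcodes under the limit for cells also held transcripts of these genes. In 1908 barcodes of 200 to 1330 UMIs, Bcl2 was at 2.05 UMIs per 10000 (1.73 to 2.41; 148 UMIs) and Bax at 0.236 (0.137 to 0.377; 17 UMIs), both above the 0.0416 that 3 counts allow and below the free RNA values of 3.50 and 0.540.

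Bcl2a1a, another copy of the Bcl2a1 family, had 6 UMIs in cells outside the 5 groups. A single cell held 5 of them and had UMIs of 2 of 5 monocyte markers, and the remaining UMI was in a cell with 3 of 5 monocyte markers. A CD8 cell without granzyme held 1 more UMI and had all 5 neutrophil markers.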

How the results depend on the processing

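All comparisons come from 1 library of 1 mouse, so no replicate could be left out, and nothing separates the animal from the cell groups. No paired analysis was possible because there is 1 sample. The number of members called was recomputed under 86 alternatives over 8 comparisons, most given without the share of all genes called. This number stayed within 1.5 times in 77. It went from 1 to 0 for Foxp3 against Cd4 cells with a fold of 2 and without cells under 5% ribosomal UMIs, where the Bcl2 ratio was 0.677. It went from 2 to 1 for CD8 without granzyme against Cd4 cells with the denominator without ribosomal and mitochondrial UMIs, with thinning to 2500 UMIs and with a fold of 2. It went from 3 to 1 with thinning for Cd79a and for S100a4 cells, and from 0 to 1 (other denominator) and 3 (thinning) for Ly6c2 cells; fewer UMIs are counted after thinning, and the cause of the Ly6c2 changes was not tested. Of 222 alternative values of the 19 called ratios, none changed direction and 199 stayed within the interval of the value given. For granzyme CD8 cells the Bcl2 ratio was 0.535 without cells under 5% ribosomal UMIs and 0.654 without those under 15%, from 0.373. The Bcl2 ratio of Ly6c2 cells was 1.08 and 1.39 under the same limits. Depth limits Bcl2a1d most, with 61 UMIs in all cells, and Bcl2l11 in clonotypes of 2 or more, with 3.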

Other observations

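Cells outside the 5 groups gave values for other blood cell types, named here from at least 3 markers of a list. The 18 neutrophil-marked cells had 20.5 Mcl1 UMIs per 10000 (17.0 to 24.4; 123 UMIs), with a UMI in all 18, against 3.21 (3.07 to 3.35) over the 4 T cell groups. The same cells had no Bcl2 UMI, which allows up to 0.499 per 10000 at 3 counts, and 1 UMI of Bcl2a1b, 2 of Bax and 2 of Bcl2l11. The 5 monocyte-marked cells had 7.46 Mcl1 UMIs per 10000 (5.25 to 10.3) and no Bcl2 UMI (up to 0.605 at 3 counts). The 24 erythroid-marked cells had 1 Mcl1 UMI and none of Bcl2, Bcl2l11, Bax or either Bcl2a1 gene. The 13 NK-marked cells without a CD4 or CD8 call had 5.55 Bcl2 UMIs per 10000 (3.87 to 7.72), 4.28 of Mcl1 (2.82 to 6.23) and 0.951 of Bcl2l11 (0.349 to 2.07; 6 UMIs). All 18 neutrophil-marked and all 24 erythroid-marked cells were low-ribosomal, so neither type had other cells for comparison. They had 0.0816% and 0.140% mitochondrial UMIs. Low-ribosomal Cd4 cells had 2.75% and low-ribosomal CD8 cells without granzyme 3.37%. Whether Bcl2 goes with the ribosomal share in these 2 types was not tested.

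Of the 34 genes of the wider list, 3 had no UMI in the 1600 cells (Bcl2l10, Bok and Hrk). Bcl2l1, the gene for BCL-XL, had 112 UMIs in 92 cells and Bcl2l2 had 5. Bcl2a1c, a copy outside the list, had 1 UMI in a monocyte-marked cell among those outside the groups.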
